A study of Mus musculus with 16 samples.

Results

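The genes described here are 10 members of the vascular endothelial growth factor (VEGF) and angiopoietin systems, chosen by symbol. They are the VEGF family ligand genes Vegfa, Vegfb, Vegfc, Figf and Pgf, the receptor genes Kdr, Flt1 and Nrp1, and the angiopoietin genes Angpt1 and Angpt2. Figf is the older symbol of Vegfd. All 10 were found in both deposited tables, among 16882 genes that the tables share, 17539 listed for quadriceps and 18000 for brown fat.

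The study sequenced mRNA from quadriceps muscle and brown adipose tissue of mice homozygous for an allele of Ppargc1a called uORF-TAA, with wild-type littermates as controls. Each of the 4 groups (quadriceps uORF-TAA, quadriceps wild-type, brown fat uORF-TAA and brown fat wild-type) had 4 libraries, 16 in all. Every animal was a C57BL/6 male, 10 weeks of age, kept at room temperature. A uORF is an upstream open reading frame, a short frame ahead of the main coding sequence, and TAA is a stop codon. The labels do not say how the allele was made, nor whether quadriceps and brown fat were taken from the same animals.

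VEGF ligands are secreted proteins that bind receptor tyrosine kinases on endothelial cells. VEGF-A, the product of Vegfa, acts mainly through Kdr and drives endothelial growth, migration and permeability, while Flt1 binds it tightly with weaker signalling and also gives a soluble decoy form. Nrp1 is a co-receptor, Vegfb and Pgf bind Flt1, and Vegfc and Figf act on lymphatic vessels through the receptor Flt4. Angiopoietin-1 from perivascular cells stabilises vessels through the receptor Tek, and angiopoietin-2, released by endothelium, modulates that signal. Muscle fibres and brown adipocytes both secrete VEGF-A. In mouse muscle, PGC-1alpha, the protein of Ppargc1a, is known to induce Vegfa together with the estrogen-related receptor ERRalpha, a route that does not need hypoxia-inducible factors (HIFs).

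The upstream sequences of 3 ligand genes are shown because Vegfa and Figf had the lowest p-values of the 10 genes in quadriceps, with opposite signs, and Vegfb is the other abundant ligand. They are from the RefSeq promoter table (build GRCm38.p6), in the gene's direction, and end at the base before the start site, or before the first annotated exon for Figf. Capitals mark the GC box GGGCGG, bound by Sp1 factors, and the half-site AGGTCA, bound by nuclear receptors including estrogen-related receptors, on either strand. The HIF core ACGTG was searched too and was not found in these windows. Sequence further upstream or within the genes was not searched, so a motif missing from a window may lie elsewhere. Where the table has several start sites, the most upstream was taken, and for Figf all 250 bases were searched although fewer are printed.
Vegfa, chr17:46032378-46032627, minus strand: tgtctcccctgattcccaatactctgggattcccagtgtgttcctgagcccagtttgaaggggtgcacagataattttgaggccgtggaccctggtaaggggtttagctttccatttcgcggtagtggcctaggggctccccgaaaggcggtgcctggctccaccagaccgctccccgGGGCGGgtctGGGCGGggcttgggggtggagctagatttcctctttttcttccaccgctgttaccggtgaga
Vegfb, chr19:6987652-6987901, minus strand: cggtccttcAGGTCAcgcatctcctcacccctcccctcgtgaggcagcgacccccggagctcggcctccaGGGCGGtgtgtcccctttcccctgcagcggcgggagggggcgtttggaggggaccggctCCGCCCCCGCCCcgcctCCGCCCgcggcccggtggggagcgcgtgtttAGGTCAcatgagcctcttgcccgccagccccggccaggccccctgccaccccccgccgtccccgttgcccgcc
Figf, chrX:164373272-164373377, plus strand: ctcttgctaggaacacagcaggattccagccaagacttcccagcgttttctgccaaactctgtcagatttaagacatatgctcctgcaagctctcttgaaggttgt

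The Vegfa window holds 2 GC boxes, 72 and 62 bases before the start site. Each distance is that of a match's first base. In the Vegfb window 4 GC boxes were found, 2 of them side by side, and 2 nuclear receptor half-sites, 241 and 73 bases before the start. Of all 32851 windows of 250 bases in that table, 14.0% hold AGGTCA, 16.6% hold ACGTG and 32.7% hold GGGCGG on either strand. Among the 8 genes with an entry (Angpt1 and Angpt2 have none), AGGTCA stands in the Vegfb and Nrp1 windows, GGGCGG in all but that of Figf, and ACGTG in none. The Pgf window begins within an annotated exon, so its matches are not shown to lie upstream of the gene. A letter match is a description of the window and was not tied to any measured value.

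The tables hold the authors' comparison of genotypes and a mean level over the 8 libraries of a tissue, and values per library were not analysed here. Library depth, estimated from genes with a single read, was about 11.4 to 31.8 M counts in quadriceps and 11.0 to 17.8 M in brown fat. M stands for 1000000. The muscle fibre marker list summed to 225906 CPM (mean counts per 1000000 of the table's summed mean counts) in quadriceps and 12267 in brown fat. The brown adipocyte list summed to 627 CPM and 29191 CPM in the same order, so each list had its larger sum in its own tissue. In quadriceps the brown adipocyte list was led by Fabp4 (mean 5893 counts) and Cox8b (2724) in the authors' deposited table, while Ucp1 had 6.70. That sum is therefore not shown to come from brown adipocytes. For Ppargc1a, the mutated gene, the authors' deposited table gives log2 fold changes of 0.06 ± 0.13 (SE) in quadriceps and 0.0016 ± 0.11 in brown fat. Its adjusted p was 1.00 in each tissue.

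Levels were read first, as the mean over both genotypes. Within a tissue, genes are ordered by the mean normalized count per kb of the longest annotated transcript. In quadriceps Vegfb, which binds Flt1, led with 751 per kb, and Vegfa, which binds Flt1 and Kdr, had 554. They were followed by Figf with 268, Nrp1 with 242, Flt1 with 216 and Kdr with 106. Angpt1 (29.4 per kb), Angpt2 (11.3), Vegfc (7.96) and Pgf (6.69) were scarce. With the mean transcript length in place of the longest, Vegfa came first, with 1212 per kb against 788 for Vegfb. The data give no error for these levels, so neighbours in the order are not shown to differ.

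Brown fat had Vegfa first under either length. Per kb of the longest transcript it had 2405, Vegfb 1224, Nrp1 981, Kdr 351 and Flt1 350, and the last pair swapped places with the mean transcript length. Figf was among the scarce genes here, with 35.3 per kb, beside Angpt1 with 22.6, Angpt2 with 16.3, Vegfc with 11.99 and Pgf with 5.96. Vegfa was thus the leading ligand in brown fat, while in quadriceps its place against Vegfb rested on the length used.

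The raw means differed widely between the genes. In quadriceps they ran from 13.9 counts for Pgf to 1911 for Vegfa in the authors' deposited table. Vegfa stood at percentile 91.9 of the listed genes by mean count, and at 98.9 in brown fat, where its mean was 8301 in the authors' deposited table. In brown fat the means of Angpt1 (96.4), Figf (72.3), Angpt2 (58.1), Vegfc (29.4) and Pgf (12.4) in the authors' deposited table lay below 105.6, the lowest mean with an adjusted p in that tissue. Those 5 genes have a p-value there but no adjusted p.

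**Figure D1:**
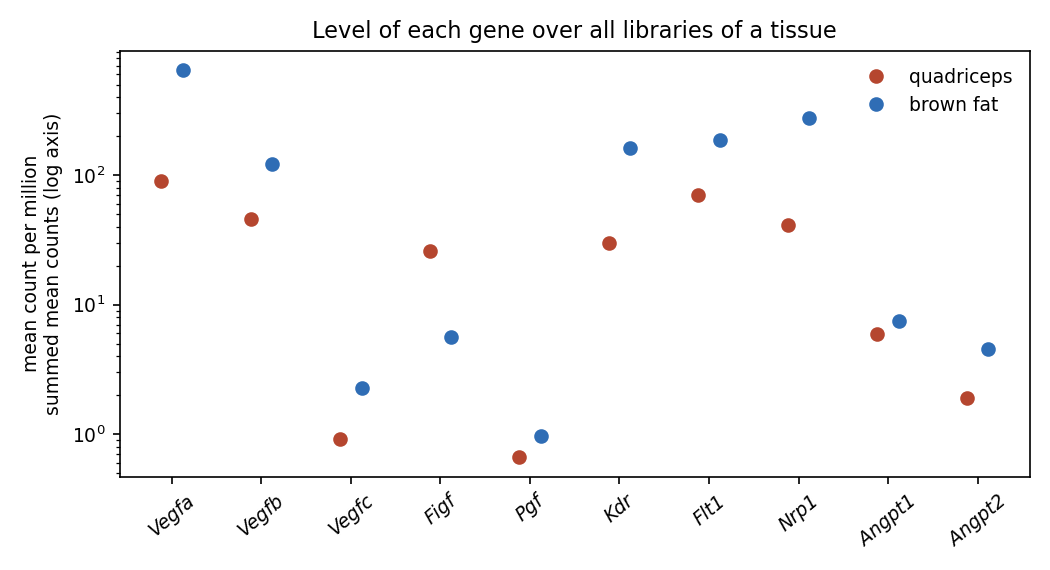
Mean normalized count of each gene as CPM of the summed mean counts, over all libraries of a tissue, on a log axis, with quadriceps and brown fat side by side and no error bars. Figf is the gene whose quadriceps point lies above its brown fat point, at 26.1 against 5.64 CPM.

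Set side by side as shares of the summed mean counts, 9 of the 10 genes were lower in quadriceps than in brown fat. The tables were normalized separately and the 10 most abundant genes took 28.1% of the counts in quadriceps and 9.27% in brown fat, so these shares are a description and were not tested. Vegfa had 90.8 CPM in quadriceps and 647 in brown fat, a ratio of 0.14. Nrp1 had 41.3 and 275 CPM in the same order, Kdr 30.0 and 162, and Flt1 70.7 and 188. Figf ran the other way, with 26.1 CPM in quadriceps and 5.64 in brown fat, a ratio of 4.64. The summed share of 15 endothelial markers was 307 CPM in quadriceps and 1991 in brown fat, and its part in the receptor levels was not tested. In whole tissue, fewer cells of a type and less RNA per cell cannot be told apart.

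The genotypes were then compared, to ask whether RNA of these genes differed in mice with the uORF-TAA allele. None of the 10 passed in quadriceps, where 0 were called at an adjusted p under 0.05 in the authors' DESeq2 test and 0 of 17521 genes were (0%). At an unadjusted p under 0.05 there were 2, Vegfa and Figf, against 350 of all genes (2.00%). A positive fold change means higher in uORF-TAA, if the genotype that a table names first is the numerator. The headers do not say so, and if that reading is wrong for a tissue, all its signs turn.

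Among the ligands in quadriceps, the authors' deposited table puts Vegfa at a log2 fold change of 0.28 ± 0.12 (SE), with p = 0.0146 and 1.00 after adjustment. The 95% interval from that error runs from 0.06 to 0.51, a fold of 1.04 to 1.43 around 1.22, on a scale that behaves as shrunken. By p it ranked 90 of 17521 genes, and to pass as the lone call at this error it would have needed a log2 fold change of 0.54. Figf, the lymphangiogenic ligand, was on the other side of 0 in the authors' deposited table, with -0.29 ± 0.13 (SE) and p = 0.0288. Its interval runs from -0.55 to -0.03, and it ranked 187 by p.

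The other ligands had wide intervals around 0 in quadriceps. Vegfb, at a mean close to that of Nrp1, is listed at -0.08 ± 0.12 (SE, log2) in the authors' deposited table. Vegfc and Pgf had 0.13 ± 0.13 and -0.14 ± 0.11 (SE) in the authors' deposited table, at means under 20 counts. The intervals of both include 0. Deposited errors of genes with very low means shrink towards 0 along with their fold changes, so a small error there is not a sign of precision.

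Quadriceps receptors did not share a direction. The authors' deposited table lists Kdr, the main signalling receptor of VEGF-A, at a log2 fold change of 0.11 ± 0.12 (SE) and Flt1 at -0.10 ± 0.09. Nrp1 was the nearest to 0 of the 10 genes, at 0.01 ± 0.10 (SE) in the authors' deposited table, with an interval from -0.17 to 0.20. The angiopoietin genes were both above 0 without passing. Angpt1 had 0.17 ± 0.13 (SE) and Angpt2 0.07 ± 0.13 in the authors' deposited table. An antisense gene, Gm17473, shares 737 exon bases with Angpt1 in GENCODE M21, and since the counting by strand is not given in the sources used here, reads of the pair may not be separated. Angpt2 lies within Mcph1 on the other strand, with 0 exon bases shared. Apart from Vegfa and Figf, p in quadriceps ran from 0.200 for Pgf to 0.883 for Nrp1.

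**Figure D2:**
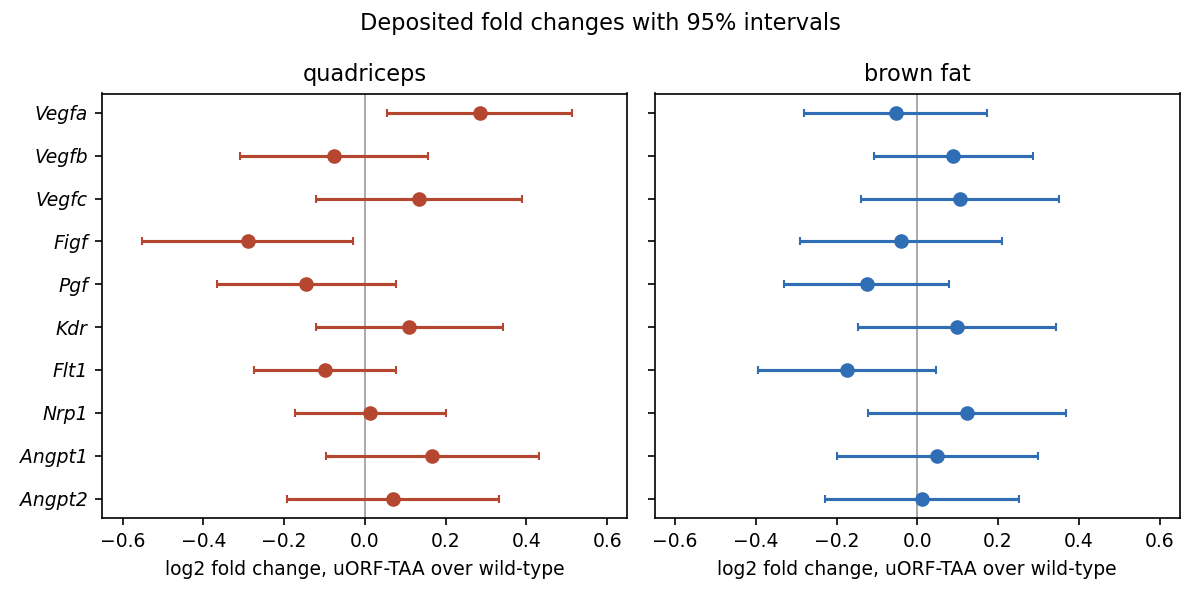
Log2 fold changes (uORF-TAA over wild-type) of the 10 genes in quadriceps (left) and brown fat (right), with bars for 95% intervals from the deposited standard errors. In quadriceps the intervals of Vegfa (0.06 to 0.51) and Figf (-0.55 to -0.03) leave out 0, and in brown fat all 10 intervals include it.

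Brown fat gave 0 called of the 5 genes with an adjusted p, against 8 of 9272 genes (0.0863%) in the authors' DESeq2 test. At an unadjusted p under 0.05 there were 0 of 10, against 372 of 17973 genes (2.07%). The smallest p, 0.124, belonged to Flt1, which the authors' deposited table lists at -0.17 ± 0.11 (SE, log2). Its interval runs from -0.39 to 0.05. Vegfa, the most abundant of the genes, had -0.05 ± 0.12 (SE) in the authors' deposited table. Its interval from -0.28 to 0.17 is a fold of 0.823 to 1.13 on the shrunken scale, which does not bound the unshrunken fold.

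The other brown fat values lay nearer to 0 than that of Flt1. The authors' deposited table gives log2 fold changes of 0.10 ± 0.13 (SE) for Kdr, 0.12 ± 0.12 for Nrp1 and 0.09 ± 0.10 for Vegfb. The low-count genes ran from -0.13 ± 0.10 (SE) for Pgf to 0.11 ± 0.13 for Vegfc in the authors' deposited table, with Figf at -0.04 ± 0.13, Angpt1 at 0.05 ± 0.13 and Angpt2 at 0.01 ± 0.12. Over the 10 genes the median log2 fold change was 0.04 in quadriceps and 0.03 in brown fat, each with 6 above 0. Over all genes tested the median was 0.0024 in quadriceps, with 51.7% above 0, and 0.0015 in brown fat, with 51.2% above 0.

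**Figure D3:**
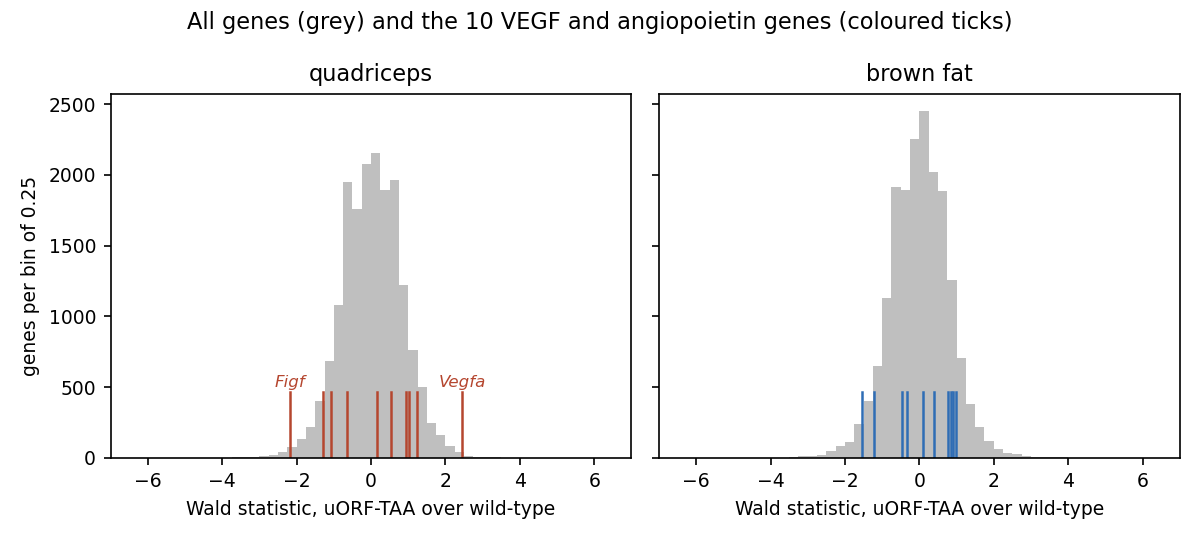
Wald statistic (log2 fold change over its standard error, uORF-TAA over wild-type) of all genes with a p-value in bins of 0.25 (grey bars, number of genes), with 1 coloured tick for each of the 10 genes, in quadriceps (left) and brown fat (right). Vegfa and Figf stand in opposite tails of the quadriceps distribution, while the brown fat ticks lie between -1.54 (Flt1) and 0.99 (Nrp1).

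The brown fat table names wild-type first, so its signs are reversed here. Read so, Vegfa was the gene of the 10 whose fold changes lay furthest apart between the tissues. The difference, quadriceps less brown fat, was 0.34 ± 0.16 (SE) on the log2 scale, with an interval from 0.02 to 0.66. By a two-sided normal test of that difference its unadjusted p was 0.0392, and its adjusted p was 1.00 over 16844 genes. None of the 10 passed, with 0 of all genes called (0%), and at an unadjusted p under 0.05 there was 1 of 10 against 195 of all genes (1.16%). The next largest were Figf at -0.25 ± 0.18 (SE) and Vegfb at -0.17 ± 0.16, with intervals that include 0. This order rests on that reading. With the brown fat signs as deposited, Figf came first at -0.33 ± 0.18 (SE), Vegfa had 0.23 ± 0.16 with an unadjusted p of 0.160, and 0 of the 10 had an unadjusted p under 0.05.

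Under the same reading the fold changes of Vegfa and Vegfb had a different sign in each tissue, and those of the 8 other genes the same sign in both. With the brown fat signs as deposited, 8 genes would differ in sign and Vegfa and Vegfb would share theirs. Kdr had nearly equal fold changes, with an interval of the difference from -0.33 to 0.35, and its difference was 0.21 ± 0.17 (SE) with the signs as deposited. The tissues were treated as independent. That would not hold if they came from the same animals, which the labels leave unsaid.

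The rest of the pathway was read from 5 further lists, none of which had a member called in either tissue at an adjusted p under 0.05. All 89 of their genes had an adjusted p in quadriceps, and 65 of 89 in brown fat. The 12 other receptors and co-receptors, among them the angiopoietin receptor Tek, its partner Tie1 and the VEGF-C receptor Flt4, had 0 at an unadjusted p under 0.05 in either tissue. Their median log2 fold change was -0.0017 in quadriceps and 0.04 in brown fat. Nrp2, a co-receptor for lymphatic ligands, had the smallest p of that list in each tissue, with -0.15 ± 0.11 (SE) in quadriceps and 0.11 ± 0.12 in brown fat in the authors' deposited table.

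Signalling genes downstream of the receptors (24, kinases and adaptors) also had 0 at an unadjusted p under 0.05 in either tissue, with medians of -0.04 in quadriceps and -0.02 in brown fat. Pik3r1, a regulatory subunit of phosphoinositide 3-kinase, had -0.13 ± 0.13 (SE) in quadriceps and -0.15 ± 0.09 in brown fat in the authors' deposited table. Plcg1, the phospholipase that binds activated Kdr, had -0.15 ± 0.10 (SE) in brown fat in the authors' deposited table. The 21 extracellular modulators had 0 as well. Timp3, a metalloproteinase inhibitor that also blocks binding of VEGF-A to Kdr, had -0.20 ± 0.12 (SE) in quadriceps and -0.10 ± 0.11 in brown fat in the authors' deposited table. Htra1, a secreted protease, had 0.16 ± 0.10 (SE) and the basement membrane proteoglycan gene Hspg2 0.17 ± 0.12 in brown fat in the authors' deposited table.

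Endothelial genes that VEGF signalling is known to raise (16) had 1 higher and 1 lower at an unadjusted p under 0.05 in quadriceps, against 0.942% higher and 1.06% lower of all genes. Nr4a1, an immediate early nuclear receptor gene that muscle fibres also express, had the smallest p there, 0.0157, with 0.32 ± 0.13 (SE, log2) in the authors' deposited table. Esm1, an endothelial proteoglycan gene named after its value was seen, was the lower one, with -0.21 ± 0.10 (SE) at a mean of only 7.48 counts in the authors' deposited table. In brown fat the list had 0 at that threshold. Of its 16 genes 13 lay above 0 (median 0.09), against 51.2% of all genes tested. Their means there ran from 2.07 to 2667 counts, and 8 of the 16 have an adjusted p. Dll4, the Notch ligand of tip cells, was on the other side at -0.20 ± 0.13 (SE) in brown fat in the authors' deposited table. Nrarp, a Notch feedback gene, had 0.21 ± 0.13 (SE) in quadriceps and 0.15 ± 0.12 in brown fat in the authors' deposited table.

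Regulators of Vegfa transcription (16) had 1 higher and 2 lower at an unadjusted p under 0.05 in quadriceps. Of all genes there, 0.942% were higher and 1.06% lower at that threshold. In brown fat the list had 0 higher and 2 lower, where 0.918% of all genes were higher and 1.15% lower. Hif3a, a HIF family member that can oppose HIF activity, had -0.34 ± 0.13 (SE) in quadriceps and -0.41 ± 0.12 in brown fat in the authors' deposited table. Its unadjusted p in the authors' DESeq2 test was 0.0119 and 0.000996 in the same order. At a mean of 70.8 counts in brown fat it has no adjusted p there, so it could not be called. Foxo1, a fasting-responsive factor, had -0.27 ± 0.13 (SE) in quadriceps and -0.41 ± 0.12 in brown fat in the authors' deposited table, where its brown fat adjusted p is 0.291. The coactivator gene Ppargc1b, a relative of Ppargc1a, had 0.28 ± 0.13 (SE) in quadriceps with p = 0.0370, and 0.15 ± 0.11 in brown fat, in the authors' deposited table.

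**Figure D4:**
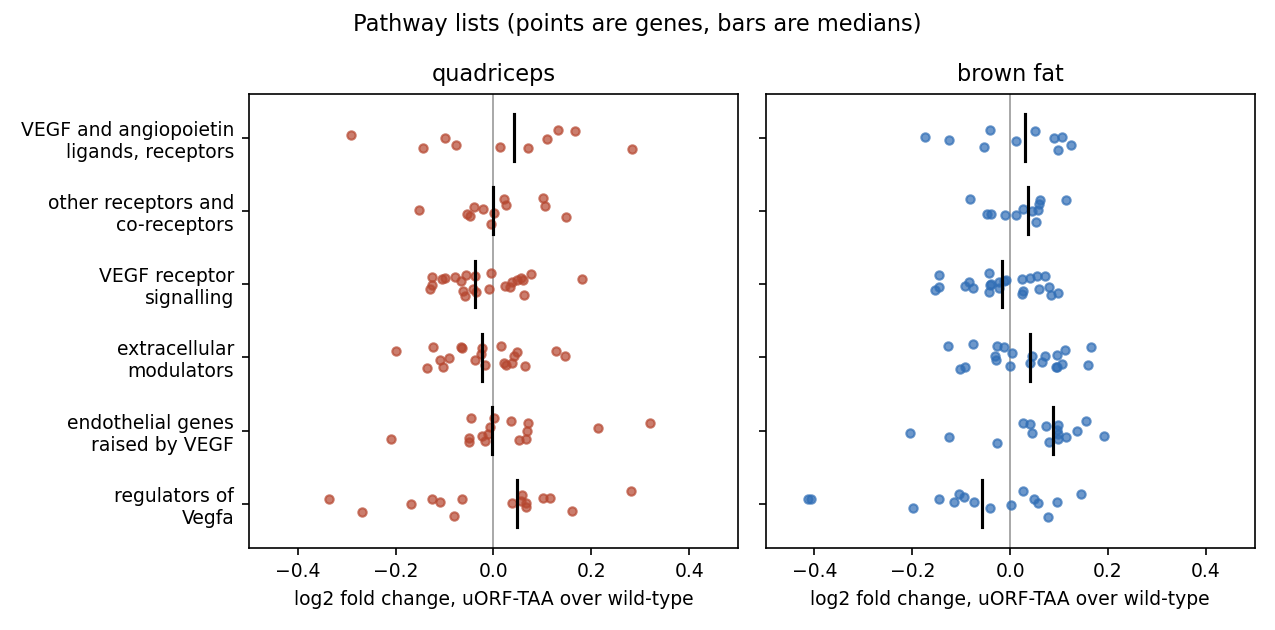
Log2 fold changes (uORF-TAA over wild-type) of the genes in each pathway list, in quadriceps (left) and brown fat (right), with 1 point per gene and a black bar at the list median. Medians lie between -0.06 and 0.09, and no point was called at an adjusted p under 0.05. Some brown fat points have no adjusted p.

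Markers of the cell types that make or receive these signals were read beside them. In both tissues 0 were called at an adjusted p under 0.05 in any of 9 marker lists, though some have no adjusted p in brown fat. The 15 endothelial markers had a median log2 fold change of -0.02 in quadriceps, with 6 above 0, and 0.03 in brown fat, with 10 above 0. Cdh5, the endothelial cadherin, had -0.0056 ± 0.10 (SE) in quadriceps and 0.06 ± 0.11 in brown fat in the authors' deposited table. Cldn5, an endothelial tight junction gene, had 0.26 ± 0.13 (SE) in quadriceps and 0.27 ± 0.13 in brown fat in the authors' deposited table, with p = 0.0348 in brown fat.

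Of the 10 mural cell markers (smooth muscle and pericytes, a source of Angpt1) 3 (Myh11, Tagln and Acta2) were lower at an unadjusted p under 0.05 in quadriceps, against 1.06% of all genes, and 0 in brown fat. Of the list 7 lay below 0 in quadriceps (median -0.07), and 7 above 0 in brown fat (median 0.09). Myh11, the smooth muscle myosin, had -0.35 ± 0.10 (SE) in quadriceps in the authors' deposited table, with an adjusted p of 0.660. The pericyte gene Rgs5 had 0.0060 ± 0.11 (SE) there in the authors' deposited table. Lymphatic endothelial markers, which bear on Vegfc and Figf, had 6 measured genes with medians of -0.03 in quadriceps and -0.04 in brown fat. Lyve1, a hyaluronan receptor of lymphatic endothelium and some macrophages, had -0.19 ± 0.13 (SE) in quadriceps and -0.17 ± 0.13 in brown fat in the authors' deposited table. Nerve glia markers were all below 0 in quadriceps (10 of 10, median -0.15) and 8 of 10 in brown fat (median -0.09). The macrophage list had 0 at an unadjusted p under 0.05 in either tissue, and so did the fibroblast list, in which 7 of 8 genes had a p-value in quadriceps. The one without, Lum, had 0.27 ± 0.13 (SE) there in the authors' deposited table, and is named after its value was seen. Brown adipocyte markers had 1 higher at that threshold in brown fat, Dio2, against 0.918% of all genes. Dio2 had 0.48 ± 0.12 (SE) there in the authors' deposited table. Its p was 0.000117 and its adjusted p 0.0990 in the authors' DESeq2 test. Muscle fibre markers had 0 at that threshold in either tissue. Myh4 had -0.0037 ± 0.08 (SE) in brown fat at a mean of 42699 counts in the authors' deposited table. Without values per library, precision and shrinkage cannot be told apart as the source of so small an error. Equal muscle RNA in both genotypes is thus not shown. Blood cells were represented by 2 measured genes. Of these, Alas2 had 0.34 ± 0.13 (SE) in brown fat and 0.02 ± 0.09 in quadriceps in the authors' deposited table. Its unadjusted p in brown fat was 0.0084 in the authors' DESeq2 test, and it did not pass after adjustment. The part of any of these marker values in those of the 10 genes was not tested.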

How the data were processed

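Messenger RNA of 16 libraries was sequenced from stranded libraries with 75-base single-end reads, per the labels' protocols. The submitters' processing notes name STAR 2.5.1b, build mm9 and DESeq2 1.10.1, with no role given. Annotation and read counting: not given in the sources used here. Per the file headers, each tissue's table of the authors' comparison holds a mean normalized count (a signal over libraries), a log2 fold change with its standard error, a Wald score, a p-value and an adjusted p-value.

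The deposited test was used as it stands. Fold changes behave as shrunken, since the standard error falls towards 0 at low means (median 0.0223 in quadriceps and 0.0181 in brown fat for means under 1), which no header states. The brown fat table names wild-type first, so its signs were reversed here. Intervals of 95% use the deposited errors. Differences between tissues used a two-sided normal test with Benjamini-Hochberg adjustment over all shared genes. It was run on simulated data that took the deposited errors as exact and the tissues as independent. Such data cannot show how the test behaves on shrunken fold changes. In the real data 1.16% of 16844 genes had an unadjusted p under 0.05 by that test, a share below the threshold itself. CPM here was computed from the deposited means. Transcript lengths came from GENCODE M21. Depth was estimated from the means of genes read once, which fall on 8 levels in each tissue. The estimate takes all libraries of a tissue to have the same normalized total. That was not checked, so the depths are approximate. Python 3.11.15 with scipy 1.17.1 was used.

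The genes, lists and tests were chosen with earlier results of these data known. Named genes are the 10 genes, Ppargc1a, up to 4 genes of smallest p per pathway list and up to 2 per marker list at a mean of at least 50, and up to 2 marker genes of highest level. Not all that the rule allows are printed, some genes are not reported here, and Tek, Tie1 and Flt4 are named without values. A planned protein comparison was not run, and upstream sequences are shown instead.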

Additional observations from a re-analysis of the deposited data

How the results depend on the processing

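Adjusting over every gene with a p-value, adjusting over genes whose mean reached 10, or using a threshold of 0.10 left 0 of the 10 genes called in quadriceps and in brown fat, by the authors' DESeq2 p-values. At an unadjusted p under 0.05 the counts were 2 in quadriceps and 0 in brown fat. The between-tissue count was 0 when both means had to reach 10, when the tissues were taken as correlated like their Wald statistics, and when the brown fat signs were left as deposited. Over all genes 0, 0 and 6 were called in these settings, and 133, 328 and 519 had an unadjusted p under 0.05, against 0 and 195 as reported. With the signs as deposited, 0 of the 10 genes had an unadjusted p under 0.05, against 1. Vegfa then had a difference of 0.23, against 0.34, and Figf came first at -0.33. That reading reversed the difference, quadriceps less brown fat, for Vegfb (0.013), Flt1 (-0.27) and Nrp1 (0.14), because it turns the brown fat sign. With mean transcript length, Vegfa ranked 1 rather than 2 per kb in quadriceps. Leaving out replicates was not run, since values per library were not analysed here. No paired analysis was possible because the tables give 1 fitted comparison per tissue. Vegfc and Pgf had the lowest depth of the 10 genes, at means under 30 counts.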
